A study of Mus musculus with 58 samples.

Results

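The genes described here encode the conjugating enzymes of phase II metabolism, namely the UDP-glucuronosyltransferases (symbols starting with Ugt1 or Ugt2), the cytosolic sulfotransferases (Sult) and the soluble glutathione transferases (Gst). They were chosen by symbol alone, and 55 such genes with 75 probes were found on the array, of 20018 genes with a symbol. The RefSeq gene table lists 66 genes with these symbols. The 11 without a probe named for them were Ugt1a1, Ugt1a2, Ugt1a5, Ugt1a7c, Ugt1a8, Ugt1a9, Ugt2a2, Sult2a5 and the pseudogenes Gstp-ps, Gstm2-ps1 and Sult2a-ps2. The 55 genes comprised 3 Ugt1, 9 Ugt2, 20 Sult and 23 Gst genes.

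The samples came from 20 male Muta™Mouse animals, aged 10 weeks, a transgenic line that carries a bacterial lacZ reporter for scoring mutations in every tissue. Vehicle mice (D0) received olive oil by gavage for 28 days, and the others were given the polycyclic aromatic hydrocarbon benz(a)anthracene (BaA) in the same oil, at daily doses of 20 (D1), 40 (D2) or 80 (D3) mg/kg body weight. The 3 tissues were collected 72 h after dosing ended, so the values show the state after a recovery time and not at the height of exposure. Every group held 5 mice, except that liver had 4 at D3 and forestomach had 4 at D0. All 58 arrays carried the RNA of 1 tissue of 1 mouse in Cy5 against the same universal reference RNA, made from 11 mouse cell lines, in Cy3. Each value is the log2 ratio of the sample to that reference, as normalised by the authors. A value of 0 therefore means the level of the reference, and values of different probes do not rank genes by abundance. Tissues were whole pieces, so fewer cells of a type and less RNA per cell cannot be told apart.

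UDP-glucuronosyltransferases sit in the endoplasmic reticulum and transfer glucuronic acid from UDP-glucuronic acid to bilirubin, steroids, bile acids and phenols. Sulfotransferases move a sulfate group from the donor PAPS to phenols, steroids and catecholamines, and glutathione transferases add glutathione to electrophiles such as the epoxides formed from polycyclic hydrocarbons. Liver is the organ best known for all 3 reactions, and several members, among them Ugt1a6 forms, Gsta1 and Gsta2, are textbook targets of the aryl hydrocarbon receptor (AhR) or of the oxidative stress regulator Nrf2.

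The promoters below show the start regions of Ugt2b5, Sult1d1, Gsta3 and Gsta2. Ugt2b5 and Sult1d1 belong to the chromosome 5 cluster and were highest in liver. Of the alpha class transferases, Gsta3 was highest in liver and Gsta2 in forestomach. Each promoter is the 250 bases before the RefSeq transcription start in build GRCm38.p6, printed 5′ to 3′ on the strand of the gene. Capitals mark matches to GCGTG (core of AhR sites) or TGACNNNGC (core of the antioxidant response element bound by Nrf2), searched on both strands, and no matches overlapped in these 4 genes.
Ugt2b5, chr5:87140341-87140590, minus strand: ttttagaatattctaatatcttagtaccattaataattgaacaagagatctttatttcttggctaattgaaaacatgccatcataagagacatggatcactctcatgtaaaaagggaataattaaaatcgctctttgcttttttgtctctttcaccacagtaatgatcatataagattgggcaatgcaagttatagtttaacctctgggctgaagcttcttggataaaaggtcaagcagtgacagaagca
Sult1d1, chr5:87569007-87569256, minus strand: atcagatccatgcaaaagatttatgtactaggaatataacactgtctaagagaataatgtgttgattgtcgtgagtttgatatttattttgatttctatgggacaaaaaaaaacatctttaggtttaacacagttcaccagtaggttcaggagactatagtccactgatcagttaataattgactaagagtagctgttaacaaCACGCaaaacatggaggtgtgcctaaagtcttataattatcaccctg
Gsta3, chr1:21240335-21240584, plus strand: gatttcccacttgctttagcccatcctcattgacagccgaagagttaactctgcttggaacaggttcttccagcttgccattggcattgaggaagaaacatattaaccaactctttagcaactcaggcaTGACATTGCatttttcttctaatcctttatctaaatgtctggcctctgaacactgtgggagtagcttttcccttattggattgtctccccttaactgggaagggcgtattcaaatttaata
Gsta2, chr9:78347146-78347395, minus strand: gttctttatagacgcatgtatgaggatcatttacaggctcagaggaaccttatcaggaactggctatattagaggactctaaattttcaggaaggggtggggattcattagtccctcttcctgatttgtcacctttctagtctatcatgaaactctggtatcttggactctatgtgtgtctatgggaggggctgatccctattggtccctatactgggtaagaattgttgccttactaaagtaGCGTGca
Sult1d1 held GCGTG on the opposite strand at 47 to 43 bases before the start, and Gsta2 held it at 7 to 3. Gsta3 held the antioxidant core as TGACATTGC at 121 to 113. Neither set of letters was in the window of Ugt2b5. Of the 55 genes, 48 matched an entry in the promoter table. GCGTG was in 9 of 48 (18.8%), against 30.9% of 27025 genes in the table, and TGACNNNGC in 3 of 48 (6.25%), against 11.5%. These matches are descriptions of letters only.

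Testing in a tissue needed signal well above background on at least 4 of its arrays. By this rule 31 members were tested in lung, 39 in liver and 37 in forestomach, with 27 tested in all 3 tissues. For genes with several probes, 1 representative probe (above background in the most tissues, then brightest) stands for the gene. Another 12 genes were tested in no tissue: Gstt4, Sult1c1, Sult2a1, Sult2a2, Sult2a3, Sult2a4, Sult2a6, Sult3a1, Sult3a2, Sult6b1, Sult6b2 and Ugt2a1. The Ugt2 family differed most in this respect, with 0 of 9 genes tested in lung, 8 in liver and 3 in forestomach. Members of 1 cluster have closely related sequences (Ugt2b, Gstm, Gsta1 with Gsta2, Gstp1 with Gstp2, and the Ugt1a forms, which share their last exons). How far their probes bind each other's transcripts was not tested, because the probe letters were not used here.

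The tissues carried their own markers. The mean log2 ratio of 6 hepatocyte markers was 7.17 to 7.87 in liver, that of 5 lung epithelial markers was 6.65 to 7.00 in lung, and that of 6 squamous markers was 3.23 to 3.97 in forestomach. Some arrays stood apart. On 10 of the 19 forestomach arrays, including D0 mouse 2, the mean of 9 glandular stomach markers was 5.12 to 6.38, with all 9 above background, against 0.66 to 2.92 on the other 9. In lung, D0 mouse 5 had squamous markers at 3.22 and skeletal muscle markers at 4.71, where the medians of the 20 lung arrays were -0.20 and -0.23. Lung arrays had 42.8 to 53.8% of probes above background, liver arrays 32.8 to 44.6% and forestomach arrays 36.8 to 68.5%.

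The first comparison asked how the conjugating enzymes are distributed over the tissues of unexposed mice. Most members were highest in liver, a smaller set, led by Sult2b1, Gsta1, Gsta2 and Gsto1, was highest in forestomach, and only Gstm2 was highest in lung. Among the 27 members tested in every tissue, 20 had their highest mean log2 ratio in liver (19 called over the next tissue), 6 in forestomach (6 called) and 1 in lung (1 called). Of the 21703 probes tested in every tissue, 42.7% were highest in liver (16.8% called over the next tissue), 26.0% in forestomach (6.83%) and 31.4% in lung (11.4%). A member was called at a limma adjusted p of at most 0.05 and a difference of at least 1.5-fold in a joint model of all 12 groups.

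Between lung and liver, 36 of 43 members were called, 2 higher in lung and 34 higher in liver, where 46.8% of all probes tested were called (25.8% higher in lung, 21% higher in liver). The median difference of the members was -3.20 (lung minus liver, log2), against 0.03 over all probes. Of these, 12 had passed the background filter only through liver and were bound to differ (12 called). Of the 27 that passed in both tissues, 23 were called, 22 higher in liver. Between liver and forestomach, 39 of 43 were called, 29 higher in liver and 10 higher in forestomach (39.1% of all probes, 17.7% higher in liver and 21.4% in forestomach), with a median of 2.34 against -0.02. Of the 33 that passed in both tissues, 30 were called (23 higher in liver, 7 in forestomach). Between lung and forestomach, 24 of 37 were called, 7 higher in lung and 17 higher in forestomach (30.6% of all probes, 16% higher in lung and 14.6% in forestomach), with a median of -0.95 against -0.04. Of the 31 that passed in both tissues, 22 were called (7 higher in lung, 15 in forestomach), with a median of -0.55. Another 6 had passed only through forestomach, and 2 of them were called. With each array centred on its median in place of the authors' normalisation, the calls between lung and forestomach split into 1 higher in lung and 18 higher in forestomach. That setting shifted the median difference over all probes by -0.38 between lung and forestomach, by 0.19 between lung and liver and by -0.69 between liver and forestomach.

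**Figure D1:**
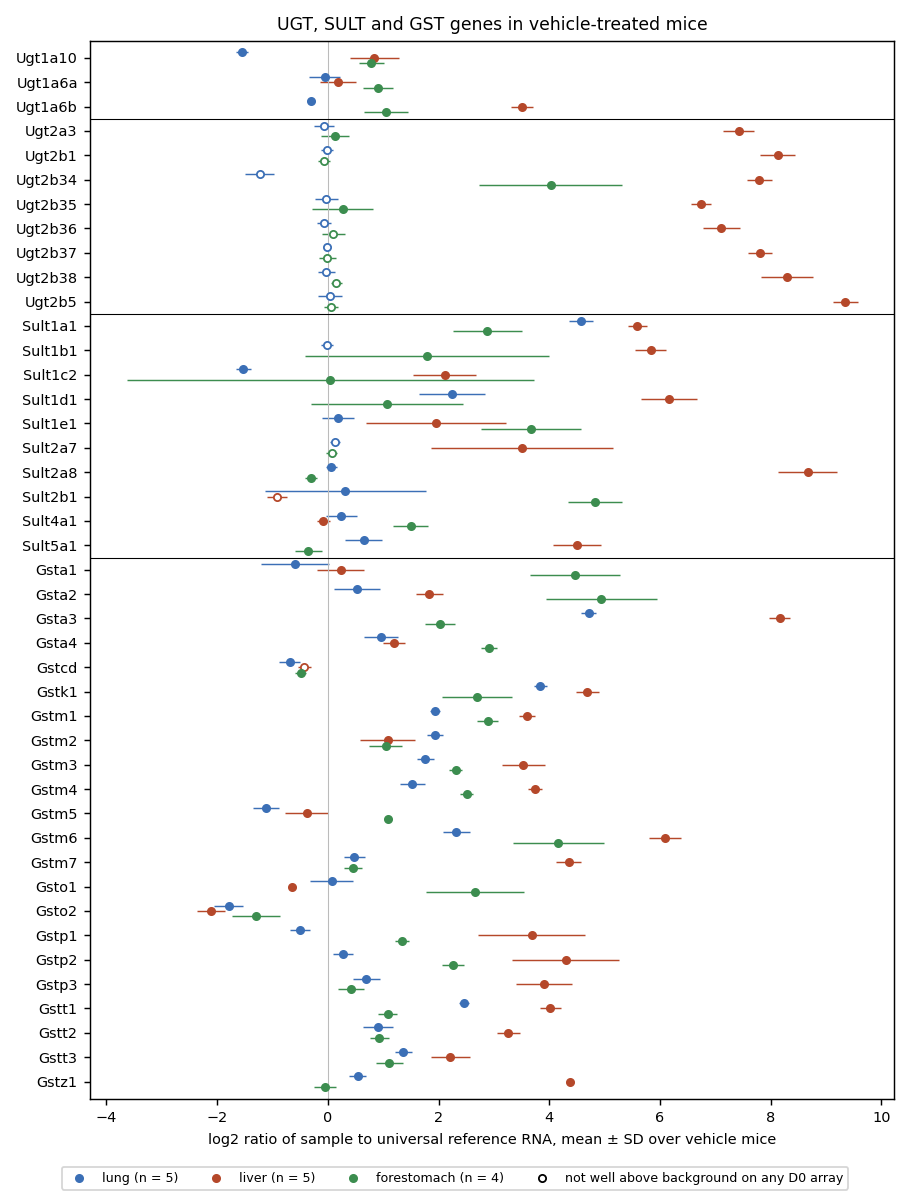
Log2 ratio of sample to reference RNA in vehicle mice (D0) for the 43 tested members, as mean ± SD over 5 lung, 5 liver and 4 forestomach arrays, with open points where no D0 array was well above background. The Ugt2 genes lie far to the right in liver, and Sult2b1, Gsta1 and Gsta2 are highest in forestomach.

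The Ugt2 family had the largest differences in favour of liver. Ugt2b5, a major hepatic form that acts on steroids, had log2 ratios of 9.53, 9.24, 9.62, 9.30 and 9.05 in the livers of mice 1 to 5. In lung it was at 0.18, 0.05, -0.20, 0.30 and -0.15, and in forestomach at 0.04, 0.25, -0.02 and -0.02, and none of these arrays was well above background. The groups were far apart, and liver was at least 434.1-fold higher than lung and at least 472.3-fold higher than forestomach. These bounds come from the Cy5 signals alone. Of the other forms that passed only through liver, Ugt2b1 was at least 160.7-fold higher in liver than in lung and Ugt2b37 at least 125.7-fold. Ugt2b38 and Ugt2b36 averaged 8.29 and 7.11 in liver and -0.03 and -0.07 in lung, and were not above background in lung. For both, the Cy5 signals and the ratios gave folds of different size, so none is given. Ugt2a3 and Ugt2b35 also passed the filter in forestomach, but at D0 their means there were 0.13 and 0.27, against 7.42 and 6.74 in liver. A second Ugt2b35 probe gave smaller steps in the same direction, which was bound to appear because this probe had passed the filter only through liver. It had 2.57 for liver minus forestomach, against 6.47 for the first, and -2.45 for lung minus liver, against -6.76.

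Ugt2b34 was the exception in this family, with clear signal in forestomach. Its log2 ratio was 7.62, 8.04, 7.60, 7.69 and 8.03 in liver, and 3.77, 5.92, 3.14 and 3.28 in forestomach, where mouse 2, with the glandular markers, was highest. In lung it lay between -1.54 and -0.96 and was not above background, below every forestomach. Liver was 13.6-fold higher than forestomach (log2 difference 3.77, SE 0.47, limma adjusted p 1.02e-09), and 21.1-fold without the forestomach of mouse 2. On chromosome 5 the array's Ugt2 genes are neighbours, in the order Ugt2b34, Ugt2b1, Ugt2b35, Ugt2b36, Ugt2b5, Ugt2b37, Ugt2a3, Ugt2b38 and Ugt2a1, and are followed by Sult1b1, Sult1d1 and Sult1e1. All of these but Ugt2a1 were tested, and all of the tested but Sult1e1 were highest in liver.

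The 3 Ugt1 forms, which include enzymes of phenol conjugation and are made from alternative first exons of 1 gene on chromosome 1, had shallower patterns. Ugt1a6b was at 3.31 to 3.79 in liver, at 0.47 to 1.32 in forestomach and at -0.40 to -0.20 in lung, with no overlap between tissues. Liver was 5.52-fold higher than forestomach and 14.1-fold higher than lung. A second Ugt1a6b probe showed a difference of only -0.03 between lung and forestomach, against -1.36 for the first, so that step depends on the probe. Ugt1a6a was highest in forestomach (0.90 ± 0.27, SD, n = 4), 1.65-fold over liver, with overlapping values. Ugt1a10 was lowest in lung (-1.55 ± 0.11, SD, n = 5), while liver and forestomach, at 0.84 and 0.79, could not be told apart (limma adjusted p = 0.83). A second probe put liver 0.85 lower, but it had passed the filter only through forestomach, so that direction was bound to appear.

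Sulfotransferases divided between liver and forestomach. Sult2a8, a bile acid sulfotransferase, was at 9.21, 8.11, 9.01, 8.95 and 8.08 in liver and between -0.42 and 0.20 in every other D0 sample. Liver was 389-fold higher than lung. Sult5a1 averaged 4.51 in liver, 0.65 in lung and -0.35 in forestomach. Sult1d1, which acts on catecholamines, averaged 6.16 in liver, 2.24 in lung and 1.07 in forestomach, and Sult1b1, which acts on thyroid hormones, averaged 5.83 in liver. Lung Sult1b1 was not well above background, and liver was at least 30.8-fold higher.

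Sult1a1, the main phenol sulfotransferase, had sizeable ratios everywhere. It was at 5.39 to 5.77 in liver, 4.27 to 4.84 in lung and 2.08 to 3.60 in forestomach. These ranges did not touch, and each step was called, with lung 3.22-fold over forestomach (limma adjusted p 9.59e-11). With the scanner's own processed signals the lung differences shrank to -0.55 against liver and 0.44 against forestomach (log2), below the fold threshold. A second probe gave a larger step from lung to liver, with means of 5.38 and 8.79.

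Sult2b1, which sulfates cholesterol and is known from stratified squamous epithelia, had the largest difference in favour of forestomach. It was at 4.88, 4.13, 5.15 and 5.16 there and between -1.15 and -0.76 in liver, where it was not above background. Lung was at 0.21, -0.40, -0.43, -0.64 and 2.85, the last in mouse 5, the lung with squamous and muscle markers. Every forestomach lay above every liver and lung. Forestomach was 22.9-fold higher than lung (limma adjusted p 3.72e-16), and 35.4-fold without lung mouse 5. Sult2b1 is one of the 2 members called higher in lung than in liver, but it passed the filter there through lung alone, and its log2 difference of 1.23 (0.60 without lung mouse 5) is given as a description. Sult1e1, the oestrogen sulfotransferase, averaged 3.67 ± 0.90 (SD, n = 4) in forestomach and 1.96 ± 1.26 (SD, n = 5) in liver, with overlapping values and a called difference (limma adjusted p = 0.00823). Sult4a1, a form known from brain, was also highest in forestomach, at 1.71, 1.15, 1.82 and 1.30 against a mean of 0.25 in lung.

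The alpha class of glutathione transferases differed in the place of forestomach. Gsta3 was at 8.20, 8.07, 8.42, 8.19 and 7.92 in liver, at 4.49 to 4.86 in lung and at 1.74 to 2.39 in forestomach, and these ranges did not overlap. Liver was 10.9-fold over lung and 70.5-fold over forestomach. Gsta1 was highest in forestomach. It was at 4.10, 5.67, 4.08 and 4.00 in forestomach, at -0.33 to 0.57 in liver and at -0.96 to 0.50 in lung, so forestomach was 18.8-fold over liver (limma adjusted p 3.23e-13). Gsta2, its close relative on chromosome 9, was at 4.56, 6.44, 4.43 and 4.33 in forestomach, at 1.48 to 2.11 in liver and at 0.17 to 1.08 in lung. Gsta1 and Gsta2 were thus lower in lung and liver than in any forestomach, and forestomach mouse 2 had the highest value of both. Gsta4, which detoxifies lipid peroxidation products, was 3.26-fold higher in forestomach than in liver.

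Most of the mu, pi, theta and zeta forms were highest in liver. Gstm1, Gstm3 and Gstm6 averaged 3.60, 3.53 and 6.10 in liver, against 1.94, 1.76 and 2.32 in lung, and forestomach lay between. Gstm2 was the only member highest in lung, at 1.77 to 2.09, 1.82-fold over liver and 1.87-fold over forestomach. A second Gstm2 probe put lung below liver by 0.12 (log2 difference -0.12), and with median centring the step over forestomach was -0.01, so its place as a lung gene depended on the probe and the scaling. Gstp1 was at 4.30, 2.08, 4.06, 4.48 and 3.48 in liver, 18.2-fold over lung on average. Gstp2, Gstt1 and Gstt3 averaged 4.29, 4.02 and 2.22 in liver and 2.27, 1.08 and 1.11 in forestomach. Gstz1, the maleylacetoacetate isomerase of tyrosine breakdown, was at 4.30 to 4.48 in liver and between -0.18 and 0.73 in every other D0 sample. Gsto1, which reduces dehydroascorbate, was 9.82-fold higher in forestomach than in liver, with the highest value (3.98) in mouse 2.

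The second comparison asked whether BaA changed these genes. In each tissue each dose was compared with D0, with the 4 dose groups of the tissue in 1 model. No member was called in any of the 9 comparisons (0 by limma). In lung the counts of all probes called were 0.00329% at D1, 0.49% at D2 and 1.75% at D3, in liver 0.241%, 0.491% and 0.399%, and in forestomach 0%, 0.00928% and 0.0248%, so that fewer than 1 call among 31 to 39 members would match the background. At an unadjusted p under 0.05, lung had 7, 4 and 5 of 31 members at D1, D2 and D3, where the shares of all probes were 7.4%, 15.9% and 23.5%. Liver had 0, 2 and 1 of 39 (7.66%, 13.6% and 15.8% of all probes), and forestomach had 3, 2 and 2 of 37 (4.86%, 3.5% and 5.03%).

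The median change of the members at D3 was -0.05 in lung (0.00 over all probes), -0.05 in liver (0.01) and 0.12 in forestomach (-0.01). At D3 the change was above 0 for 11 of 31 lung members, 12 of 39 liver members and 27 of 37 forestomach members, where 49.9%, 51.5% and 47.3% of all probes were higher. The forestomach groups compared there were unequal in glandular stomach markers, which were high in 1 of the 4 vehicle mice and in 2 of the 5 D3 mice. They were also unequal in the mean of 5 fat markers, with a median of 4.29 at D0 (1.43 to 4.79) and 1.85 at D3 (1.10 to 3.26). At D1 and D2 the fat medians were 1.42 and 2.28. What these differences did to the dose comparisons of forestomach was not tested for fat. At D1 and D2, 7 and 8 of 31 lung members were above 0 (49.9% and 51.1% of all probes), with medians of -0.14 and -0.09. At D1 in lung, 20 of 22 Gst members were lower. In liver 15 and 26 of 39 were above 0 at D1 and D2 (54.1% and 52.5%), and in forestomach 23 and 23 of 37 (41.9% and 47.5%). The 95% confidence interval of the D3 change lay within 2-fold either way for 28 of 31 members in lung, 32 of 39 in liver and 28 of 37 in forestomach, and within 1.5-fold for 24, 22 and 13. For these members a change larger than the limit lay outside the interval.

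**Figure D2:**
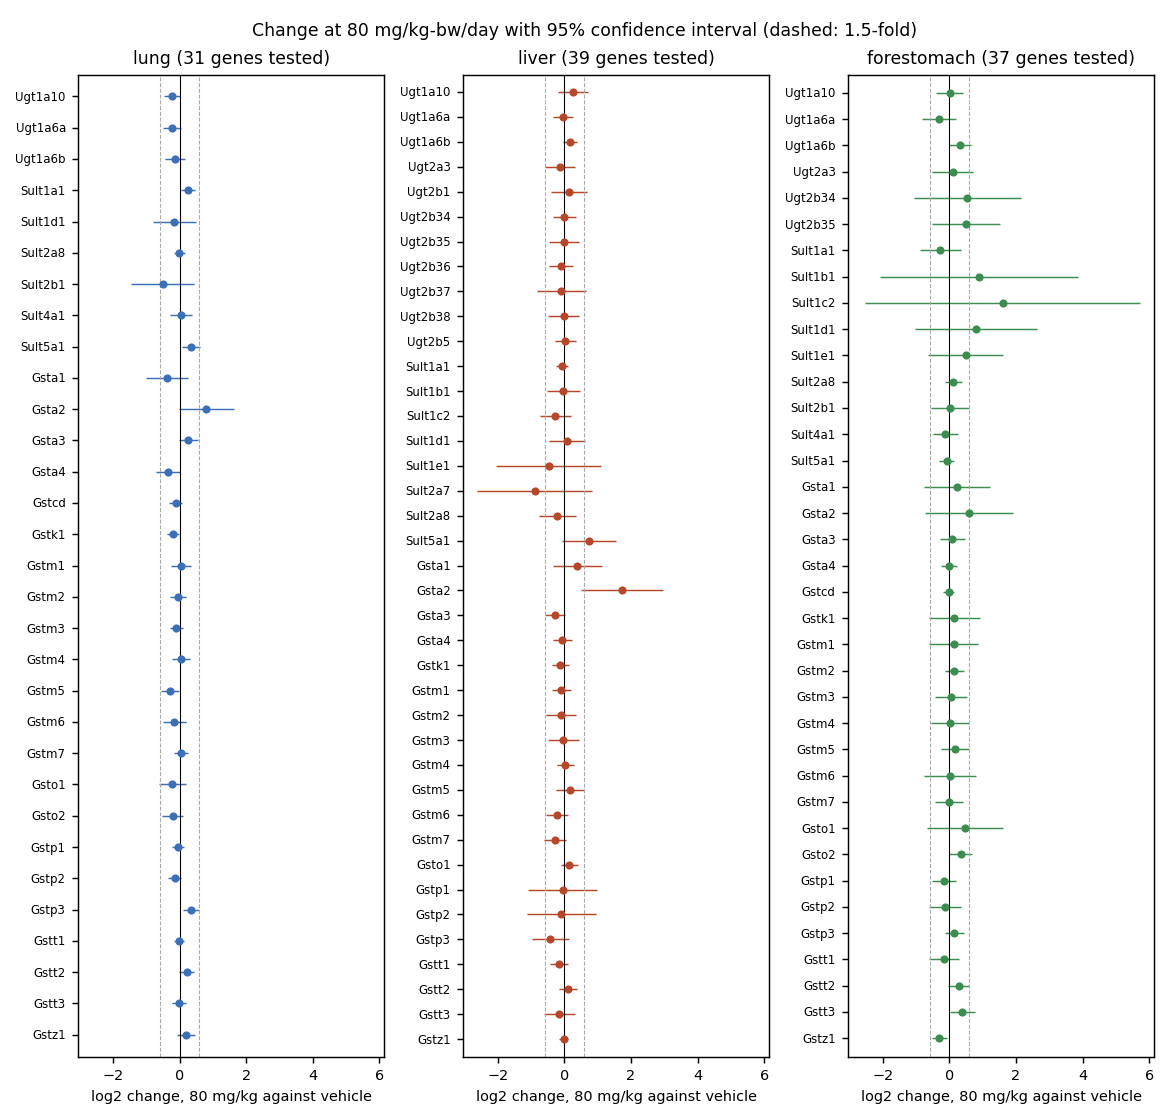
Log2 change at D3 (80 mg/kg-bw/day) against vehicle for each tested member in lung, liver and forestomach, with its 95% confidence interval from limma's fit and dashed lines at 1.5-fold. Most intervals cross 0, the widest are those of forestomach Sult1c2 and Sult1b1, and that of liver Gsta2 (1.73) runs from 0.49 to 2.97.

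The 3 Ugt1 forms, of which Ugt1a6 is a textbook AhR target, changed by -0.23 to -0.13 in lung at D3, by -0.04 to 0.26 in liver and by -0.31 to 0.32 in forestomach. None passed the test. A second Ugt1a6b probe was lower in lung at D2, at -0.45, -0.53, -0.42, -0.57 and -0.38 against -0.10 to 0.19 at D0, without overlap (log2 change -0.52, limma adjusted p = 0.045, under 1.5-fold). The representative probe had -0.20 there. The 8 Ugt2 genes of liver changed by only -0.13 to 0.13 at D3.

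Gsta2 had the largest response of the family in liver, without passing the adjusted threshold. Its log2 ratios were 1.96, 2.11, 1.93, 1.70 and 1.48 at D0. They were 4.13, 1.80, 0.69, 1.01 and 2.43 at D1, 2.15, 2.20, 2.55, 4.26 and 2.97 at D2, and 3.20, 4.66, 2.15 and 4.24 at D3. All D2 and D3 livers lay above all D0 livers, while D1 spread on both sides. The D3 change was 1.73 (SE 0.59, 95% interval 0.49 to 2.97, unadjusted p 0.0088 and adjusted p 0.157 by limma). Within slides 1, 2 and 3 it was 1.41, 1.38 and 2.70, from 2, 2 and 1 livers at D0 and 1, 2 and 1 at D3. Each of the 3 slides held every dose group. The slope was 1.84 per 80 mg/kg (limma adjusted p = 0.109).

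In lung, Gsta2 was at 0.19, 0.34, 0.17, 0.86 and 1.08 at D0 and at 1.18, 1.94, 0.73, 2.17 and 0.64 at D3, with overlap. The change was 0.80 (95% interval -0.02 to 1.63, limma adjusted p = 0.223). Within slides 1, 2 and 3 it was -0.29, 2.00 and 1.30, from 2, 1 and 2 lungs of each group. In forestomach Gsta2 changed by 0.59 at D3, with an interval of -0.74 to 1.91. The liver and lung changes differed by -0.92 (lung minus liver), which limma did not call.

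For the dose trend, 1 member passed an adjusted p of 0.05, Sult5a1 in lung, where 11% of all probes did. Sult5a1, a sulfotransferase of unsettled substrate, was at 0.96, 1.07, 0.35, 0.45 and 0.41 at D0, at 0.32 to 0.62 at D1, at 0.65 to 1.08 at D2 and at 0.86 to 1.10 at D3. D0 held both low and high lungs, and the D3 values were all near the high end. The slope was 0.44 per 80 mg/kg (SE 0.14, limma adjusted p = 0.0426), and the D3 change of 0.34 was not called (adjusted p = 0.109). The trend was lost (0 members) when any 1 of 10 lungs was left out: D0 mice 3, 4 and 5, D1 mice 6, 7 and 9, and D3 mice 16, 17, 18 and 19. In liver Sult5a1 changed by 0.73 at D3 (95% interval -0.08 to 1.53), and the 0 liver members past the trend threshold compare with 0.913% of all probes, those of forestomach with 0.0309%. At an unadjusted p under 0.05, limma's trend numbered 8 members in lung (25.4% of all probes), 2 in liver (16%) and 0 in forestomach (5.17%).

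Sult1a1 showed the same direction in lung. On its representative probe the lungs were at 4.27 to 4.84 at D0 and 4.70 to 4.95 at D3 (change 0.26, limma adjusted p = 0.104). On a second probe they were at 5.32, 5.54, 4.96, 5.34 and 5.72 at D0 and at 5.73, 5.80, 6.10, 5.89 and 5.97 at D3. The D3 lungs lay above every D0 lung there (change 0.52, adjusted p 0.022), a difference under 1.5-fold, with a slope of 0.54 per 80 mg/kg (adjusted p 0.00754).

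Small steps without overlap were also seen for Gstk1, a mitochondrial form, in lung at D1 (3.34 to 3.70 against 3.73 to 3.98 at D0, change -0.28). Such steps were picked out after the values were seen, and the share of all probes without overlap was not counted. Forestomach Gstz1 was at -0.16, -0.14, -0.18 and 0.24 at D0 and at -0.50, -0.25, -0.62, -0.18 and -0.57 at D1. The lowest D0 value (-0.1781) and the highest D1 value (-0.1803) nearly touched. Its change was -0.37 at D1 and -0.30 at D3, with unadjusted p of 0.004 and 0.015 by limma, and neither passed the adjustment. The dose response was also compared between tissues at D3. No member differed (0 by limma, of 27 for lung and liver, 31 for lung and forestomach, and 33 for liver and forestomach, where 2.03%, 0.246% and 0.0272% of all probes did). At an unadjusted p under 0.05 the counts were 2, 4 and 3, against 14.4%, 8.43% and 7.23% of all probes. The lowest adjusted p was 0.119, for Gstp3 (0.76 higher change in lung than in liver, SE 0.26). Without the liver of D3 mouse 16, Gstp3 was called.

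In forestomach, the spread of several members followed the glandular stomach markers. Those markers were high on 1 of 4 arrays at D0, 5 of 5 at D1, 2 of 5 at D2 and 2 of 5 at D3, so their level differed between the dose groups. Sult1c2, a gastric sulfotransferase named here after its values were seen, was at -1.83, 5.56, -1.84 and -1.70 at D0 and at 4.52, 5.90, 3.57, 5.06 and 4.02 at D1. At D2 it was at -0.64, -1.66, -1.67, 5.58 and 5.58, and at D3 at -0.69, -0.47, -1.55, 5.24 and 5.70. Every high value was on an array with high glandular markers: the 10 such arrays held 3.57 to 5.90 and the other 9 held -1.84 to -0.47. The change of 4.57 at D1 (95% interval 0.45 to 8.69, limma adjusted p = 0.932) stood beside high glandular markers on 5 of 5 D1 arrays and 1 of 4 D0 arrays. With the marker level in the model as a covariate it was -0.45 (limma adjusted p = 0.521). Such a fall was bound to appear for a gene that follows the markers, and a cause was not tested.

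**Figure D3:**
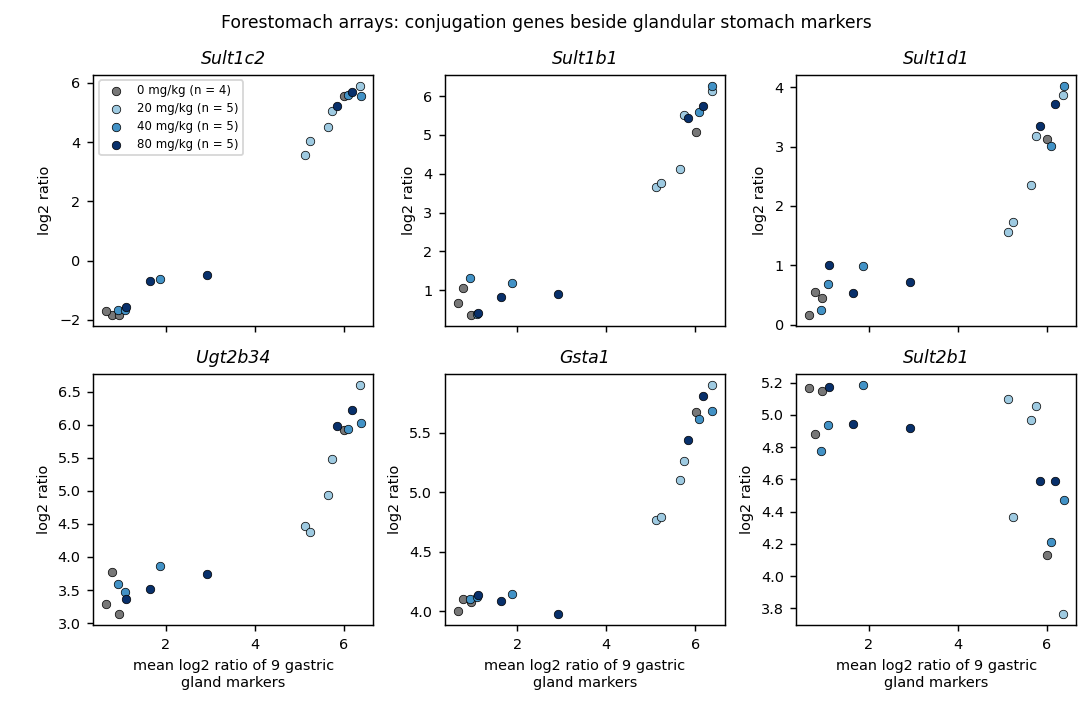
Log2 ratio of forestomach members (vertical axis) against the mean log2 ratio of 9 glandular stomach markers (horizontal axis), 1 point per array and coloured by dose group. Sult1c2, Sult1b1, Sult1d1 and Ugt2b34 are higher on the 10 arrays with marker levels of 5.12 to 6.38 than on the 9 with 0.66 to 2.92, and D1 points are all among the 10.

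Other members split in the same way between the 10 arrays with high glandular markers and the other 9, as a description of arrays and not of dose groups. Sult1b1 was at 3.66 to 6.26 against 0.36 to 1.32, Sult1d1 at 1.56 to 4.02 against 0.16 to 1.01, and Ugt2b34 at 4.38 to 6.60 against 3.14 to 3.87. Gsta1 was at 4.76 to 5.90 against 3.97 to 4.14. Gsta2 (4.97 to 7.10 against 4.33 to 5.21) and Gsto1 (2.65 to 4.77 against 2.07 to 2.78) overlapped slightly. Sult2b1 ran lower on the 10 arrays (3.77 to 5.10 against 4.78 to 5.19), as did Gstm1 (1.91 to 3.27 against 2.88 to 3.68). At D0 these genes rest on mouse 2 alone for the glandular state, which bears on the forestomach means given above: without it, Sult1d1 in lung lay 1.85 (log2) above forestomach and was called, where it was 1.17 and not called with it.

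When the marker level was added to the model as a covariate, an alternative chosen after the data had been seen, 0 members were called by limma at any dose, where 0%, 0.0186% and 0.034% of all probes were, and 14, 4 and 3 had an unadjusted p under 0.05 at D1, D2 and D3. Of all 32318 probes 4073, 1811 and 2576 did. The D1 changes of the members that ran higher with the markers went from above 0 to below 0, and neither set passed the adjustment. These members were named for following the markers, which were high on 5 of 5 D1 arrays and 1 of 4 D0 arrays. A fall of their D1 changes was therefore bound to appear, and a cause was not tested. Sult1b1 went from 2.85 to -0.67, Sult1d1 from 1.46 to -0.64, Ugt2b34 from 1.15 to -0.72, Gsta1 from 0.70 to -0.45 and Gsta2 from 1.01 to -0.53. Sult2b1 and Gstm1, which ran lower on the arrays with high markers, were at 0.31 and 0.56 at D1 with the covariate. Ugt1a6b had 0.60 at D1 in that model (limma unadjusted p 6.1e-05, adjusted p 0.244) and 0.45 at D3 (adjusted p 0.191). Without the covariate its changes were 0.26 and 0.32. It ran lower on the arrays with high glandular markers (0.47 to 1.53 against 1.14 to 1.60), with D0 mouse 2 lowest. A rise of its D1 change with the covariate was therefore also bound to appear, and a cause was not tested. The forestomach values of Ugt1a6b were 1.26, 0.47, 1.14 and 1.32 at D0, 1.22 to 1.53 at D1 and 1.14 to 1.47 at D3, so the dose groups overlapped.

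Within liver, 2 animals stood apart in sulfotransferases. They were picked for their Sult2a7 values after these had been seen. Of 39 members, 3 lay above the range of the other livers in both animals and 4 lay below it. The share of all probes outside that range was not counted, so these numbers only describe the 2 livers. Sult2a7, a hydroxysteroid form named after its values were seen, was at 6.32 in D0 mouse 2 and 6.86 in D1 mouse 8, and at 1.63 to 3.57 in the other 17 livers. Sult1e1 was also highest in these 2 livers, at 3.66 and 4.09 against 0.09 to 3.24. Gstm5 lay above all others as well, at 0.30 and 0.41. Gstp2, a pi class form, ran the opposite way, at 2.66 and 2.89 against 3.16 to 5.03. Smaller steps down were those of Ugt2b38 (7.69 and 7.84 against 7.85 to 8.96), Gsta4 (0.93 and 0.83 against 0.96 to 1.51) and Gstk1 (4.42 and 4.44 against 4.49 to 5.10). Both livers were on slide 1, and the other 4 livers of that slide were among the 17.

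**Figure D4:**
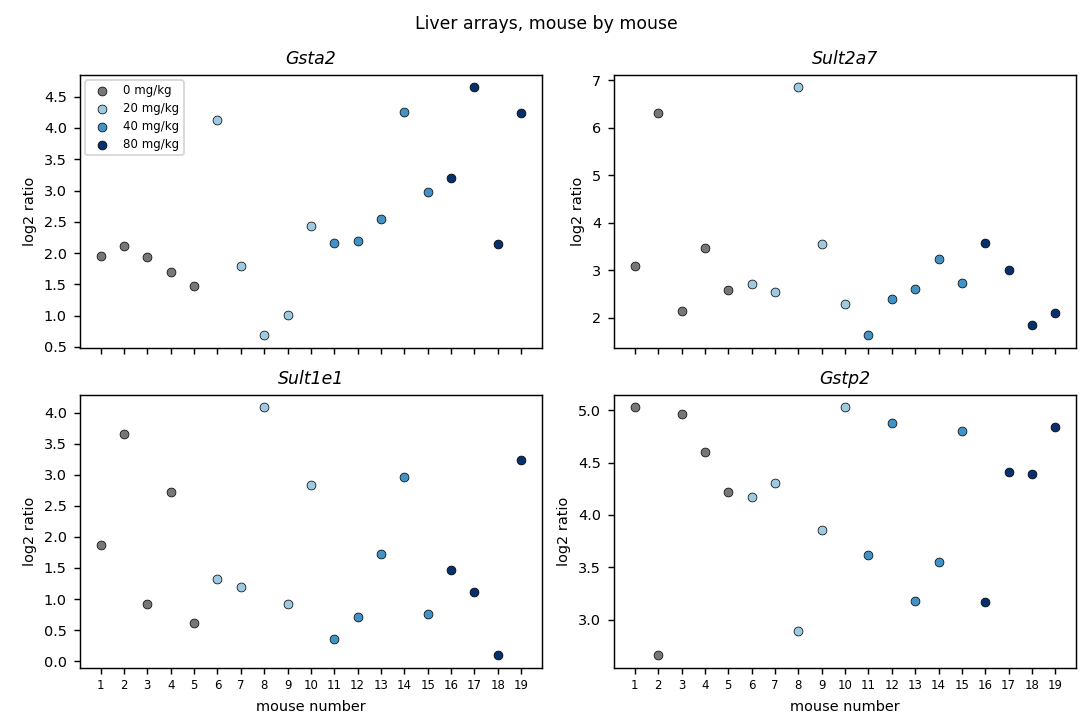
Log2 ratio of Sult2a7, Sult1e1, Gstp2 and Gsta2 in each of the 19 livers, with mice on the horizontal axis and dose groups by colour. Mice 2 and 8 are highest for Sult2a7 and Sult1e1 and lowest for Gstp2, while high Gsta2 values are spread over D1, D2 and D3 mice.

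The spread of the members over all arrays of a tissue had a median SD of 0.23 in lung, 0.33 in liver and 0.33 in forestomach. An SD above 1 was found for 0 of 31 lung members, for Gsta2, Sult1e1 and Sult2a7 among liver members, and for Sult1b1, Sult1c2, Sult1d1 and Ugt2b34 among forestomach members. Gstz1 was the steadiest in liver (0.08) and Gstt1 in lung (0.10).

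Genes that serve these enzymes were examined as lists. They comprised 8 genes of cofactor supply (such as Papss2, which makes PAPS, and Gclc, of glutathione synthesis), 3 membrane glutathione transferases, 5 exporters of conjugates, 4 hydrolases (3 on the array), 8 regulators, and 9 genes induced by AhR or Nrf2. At D3 none of the tested genes of any list was called by limma in any tissue (0 higher and 0 lower). The median change at D3 of the cofactor genes was 0.07 in lung, 0.10 in liver and 0.14 in forestomach, and that of the induced genes was 0.03, -0.04 and 0.14. Over all probes the medians were -0.0005, 0.0069 and -0.0090. Papss2 had changes of 1.34, 0.89 and 0.81 in forestomach from D1 to D3, beside glandular markers that differed between the dose groups as above. Hnf4a, a regulator of hepatocyte genes, averaged 4.79 in D0 liver and was above background on 0 of 20 lungs. Cyp1a1, the best known AhR target, had lung changes of 1.11, -1.04 and -1.27 from D1 to D3 (limma adjusted p = 0.41 at D3). Ahrr, the AhR repressor, was 0.56 higher in lung at D3 (adjusted p 0.01), under 1.5-fold.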

How the data were processed

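Two-colour Agilent mouse arrays were read with Feature Extraction 10.7.3.1 per the file headers. The authors normalised median signals without background correction by LOWESS and deposited log2 ratios of Cy5 (sample) to Cy3 (reference), which are the values used here. The deposited scanner files hold spot intensity on a linear scale and gave the background flags, the outlier flags (0.495% of gene spots, left out) and the alternatives. Against a loess computed here from the intensities, the deposited columns correlated with r of 0.995 to 0.998. No dyes were swapped, so a dye bias of a probe stays in its ratio.

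Probe accessions matched symbols in a RefSeq table of assembly GRCm38.p6 for 26413 of 55681 probes. Promoter sequences come from RefSeq's table of the same build. Groups were taken from the sample labels, and the liver of mouse 20 and the forestomach of mouse 5 were not analysed here. Testing in a tissue needed a Cy5 signal well above background on 4 or more of its arrays (in a tissue difference at D0, in at least 1 tissue, and in a D3 difference between tissues, in both). Tests were two-sided in limma 3.58.1 (R version 4.3.3, data.table version 1.17.8), with Benjamini-Hochberg adjustment over all probes of a comparison: 1 model per tissue for dose, a slope on dose for the trend, and 1 model of 12 groups for tissues. Calls needed an adjusted p of at most 0.05 and 1.5-fold (trend: adjusted p alone), the study's thresholds. The study used MAANOVA, which was not run, so limma took its place. The steps were tested on simulated data. "At least" folds, from Cy5 signals normalised between arrays, set the brighter mean against the higher of the dim probe's own signal and the lowest signal above background on each array.

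Mice carry the same number in every tissue per the labels, so tissues are paired by animal. Same-animal deviations from group means had a median correlation of 0.132 (lung and liver), 0.110 (lung and forestomach) and 0.0558 (liver and forestomach), against -0.0338, -0.0283 and -0.0147 between animals. The lowest and highest correlation between replicate arrays were 0.893 and 0.974 for lung, 0.953 and 0.980 for liver, and 0.835 and 0.971 for forestomach. Identical values were found in 0 pairs. Precision is limited by the number of arrays. Named genes are those called for dose, the 2 largest called differences per family and pair of tissues, and a fixed list of 21, of which Ugt1a1 had no probe. The members and all lists were chosen with earlier results of these data known, and 1 listed regulator is not reported here. Alternatives were other backgrounds, normalisations, filters, probes and blocks, and each array left out in turn.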

Additional observations from a re-analysis of the deposited data

Results flagged for a closer look

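Values of each gene within each dose group of 4 or 5 arrays were examined for 1 array far from the rest, and 20 of 300 groups held one by Dixon's test. Chance gives about 1 such group in 20. Of these, 8 were forestomach D0 mouse 2, the only vehicle forestomach with high glandular stomach markers. It had 5.67 for Gsta1 (the other 3 arrays 4.00 to 4.10), 6.44 for Gsta2 (4.33 to 4.56), 3.98 for Gsto1 (2.07 to 2.29), 5.08 for Sult1b1 (0.36 to 1.06), 5.56 for Sult1c2 (-1.84 to -1.70), 3.12 for Sult1d1 (0.16 to 0.56) and 1.08 for Ugt2b35 (-0.13 to 0.07), and it was low for Gstm2, at 0.60 (1.15 to 1.22).

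The vehicle lung of mouse 5, with squamous and skeletal muscle markers, had 0.50 for Gsta1 (the others -0.96 to -0.70) and 2.85 for Sult2b1 (-0.64 to 0.21). The D3 lung of mouse 16 had 0.03 for Gsta1 (-1.40 to -1.09). That lung had squamous markers at 1.10 and skeletal muscle markers at 1.34. The D1 lung of mouse 7 was low for Gstm1, at 1.03 (1.88 to 1.98), and for Gstm2, at 1.29 (1.69 to 1.85).

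The D1 liver of mouse 8 had 6.86 for Sult2a7 (2.29 to 3.55), 7.50 for Gsta3 (8.06 to 8.24) and 3.40 for Gstt1 (3.78 to 3.92). The D2 liver of mouse 15 had 1.31 for Gsta1 (0.18 to 0.48). In forestomach, D0 mouse 3 had 0.75 for Gstt3 (1.23 to 1.24), D0 mouse 4 had 0.24 for Gstz1 (-0.18 to -0.14), and D1 mouse 6 had 0.03 for Sult2a8 (-0.37 to -0.27). All values are log2 ratios to the reference.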

How the results depend on the processing

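The 9 dose comparisons and the liver and forestomach trends held 0 called members under every alternative that was run, leaving out each array included. The lung trend, 1 member in the report (Sult5a1), was 0 with the scanner's processed signals, with median centring, without a background filter and without the lungs of mice 5 and 16 (chosen after seeing the data), and 2 with normexp, with Cy5 alone, with the slide as a block and with any probe of a gene, and it ranged from 0 to 2 with 1 array left out. The D3 difference between lung and liver was 0, and ranged from 0 to 1 with 1 array left out. The causes were not tested. The tissue counts stayed within 1.5 times, from 29 to 38 for lung and liver, 19 to 28 for lung and forestomach, and 34 to 41 for liver and forestomach, with the lowest count each time under median centring. With the mouse as a replicate block, which pairs the tissues of an animal, the tissue counts were 38, 24 and 39 and the 3 differences at D3 were 0. The block added calls of Gsta1 (-0.82) and Gsto1 (0.71) between lung and liver. Median centring turned 4 single differences (log2): Gstm2 and Gstz1 between lung and forestomach to -0.0098 and -0.13, and Gstm1 and Ugt1a10 between liver and forestomach to -0.11 and -0.94. A second probe turned Gstm2 between lung and liver to -0.12 and Ugt1a10 between liver and forestomach to -0.85. That Ugt1a10 probe had passed the filter only through forestomach, so its direction was bound to appear. Gsta2 between lung and liver (-1.31) lost its call with the slide as a block, without the livers of mice 2 and 8 together, and without the D0 liver of mouse 1 or 2 or the D0 lung of mouse 1, 2 or 3 (-1.45 to -1.22 with 1 array left out). Of 1239 alternative values of tissue differences of named genes, 1178 stayed called or uncalled as before, and 12 of these, all uncalled, changed sign. All 1028 alternative values of D3 effects stayed uncalled, and 120 of them changed sign. Signal over background limits the dim genes, for which folds are bounds.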

Other observations

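Genes known to differ between male and female mouse livers were looked at beside the livers of mice 2 and 8, and were chosen after the values had been seen. Cyp3a44, higher in female livers, was at 0.95 and 2.82 in mice 2 and 8 and at -0.20 to 0.35 in the other 17. Of genes higher in males, Cyp7b1 was at 7.18 and 7.14 against 7.45 to 8.48, and Cyp4a12a at 8.39 and 7.82 against 8.41 to 9.13. Elovl3 was at 4.92 and 2.16 against 3.61 to 5.58, so only mouse 8 lay outside. The other 3 genes did not set these livers apart: Cyp2b9, higher in females, was at 0.78 and 0.47 within -0.12 to 0.81, Hsd3b5 at 4.28 and 4.51 within 4.26 to 5.64, and Cyp2d9 at 6.04 and 6.19 within 6.02 to 6.95. All animals are labelled male, and no test was made.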
